A study of Mus musculus with 8 samples.

Results

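The genes examined were 10 markers of fibroblastic progenitors and preadipocytes in fat: Pdgfra, Pdgfrb, Dpp4, Pi16, Cd34, Ly6a, Thy1, Cd55, Icam1 and F3. They were taken by symbol, as a list of such markers, from the 34866 genes of the deposited table, and all 10 were present. RNA had been profiled by BRB-seq, a method that reads the 3′ ends of transcripts primed with oligo-dT, in whole epididymal adipose tissue (the fat pad beside the epididymis) of male mice. The 4 control libraries came from Aromatase flox/flox mice, in which the aromatase gene Cyp19a1 is flanked by loxP sites. The 4 knockout libraries came from aP2-Cre;Aromatase flox/flox mice, so that both groups carry the floxed alleles and only the knockout group carries Cre; the study used them to look for genes that depend on aromatase in fat and bear on phosphorus handling. The aP2 (Fabp4) promoter that drives this Cre is active in adipocytes and is known to be active in some other cells as well, macrophages among them. Ages are not given in the labels, no group with Cre and unfloxed Cyp19a1 was analysed here, and the labels do not say that each library is a separate animal, so p-values measure the spread between these libraries.

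Fat tissue holds, beside its lipid-filled adipocytes, a stroma of fibroblast-like cells from which new adipocytes arise. Pdgfra and Ly6a are used to find these cells in general. Dpp4, Pi16, Cd55 and Thy1 are strong in an interstitial population that lies in the connective tissue around the fat lobules, Icam1 in cells further committed to the adipocyte fate, and F3 (whose protein is CD142) in a stromal population reported to restrain adipocyte formation. Several of the genes are shared with other cells: Cd34, Ly6a and Icam1 with endothelium, Pdgfrb with pericytes and smooth muscle, Thy1 and Ly6a with lymphocytes, and Icam1 with leukocytes. In RNA from whole tissue, fewer cells of a type and less RNA per cell cannot be told apart.

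The 8 libraries held 1538427 to 3053565 estimated counts, with control replicate 4 the smallest. Levels are given in CPM, the count divided by the size of its library and brought to a common total, with library sizes scaled by the trimmed mean of M values (TMM). They are compared between libraries for the same gene, never between genes. The 10 markers had 16 to 496 estimated counts in a library, and all 10 passed the low-count filter. Cyp19a1 itself had 0 to 5.017 estimated counts per library and was removed by that filter, so its deletion could not be checked here. Genes of the mitochondrial genome took 11.3% ± 0.802 of all counts in controls and 9.31% ± 0.583 in knockouts (SD, n = 4 each; two-sided exact permutation p = 0.0286, the smallest that 4 against 4 can give; adjusted p = 0.0429 over 3 library measures).

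In the test of knockout against control (quasi-likelihood, edgeR), none of the 10 markers had an adjusted p under 0.05, where 0.168% of the 12480 genes tested did; DESeq2 and limma-voom called none of the 10 either. F3, tissue factor, had the only unadjusted p under 0.05 among them, 1 of 10 where 6.39% of all tested genes had one. No marker had non-overlapping groups, a separation seen in 4.21% of all tested genes. The log2 fold changes (knockout minus control) ran from -0.76 for F3 to 0.28 for Dpp4, with 8 above 0 and 2 below, and a median of 0.04. Over all tested genes the median was 0, with 6204 above and 6276 below. The split of the markers was again 8 to 2 with DESeq2, but 5 to 5 with the replicate number as a block and without control replicate 2. For 9 of the 10 markers, F3 being the exception, the 95% interval of the log2 fold change lay between -1 and 1, so that a 2-fold difference in either direction was outside it; these intervals are per gene and not widened for the number of genes.

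**Figure D1:**
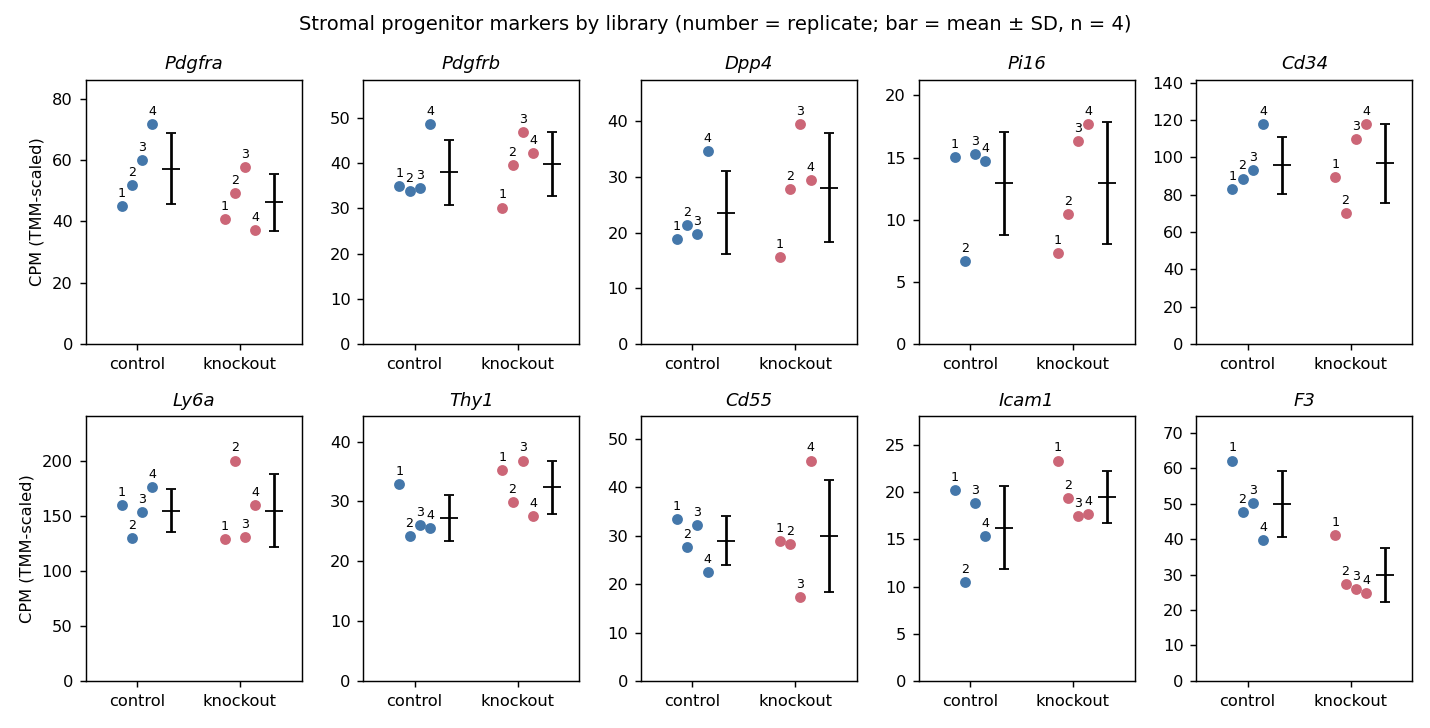
CPM of each of the 10 markers (vertical axes, each from 0) in the 4 control (blue) and 4 knockout (red) libraries, with replicate numbers beside the points and the mean ± SD (n = 4) as a black bar. The groups overlap in every panel; in F3 the overlap comes from knockout replicate 1 at 41.2 CPM and control replicate 4 at 39.8 CPM.

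F3 (chromosome 3, 121723537 to 121735048 in GRCm38, plus strand) encodes tissue factor, the cell-surface receptor for factor VII that starts blood clotting. It stood at 62.2, 47.7, 50.2 and 39.8 CPM in control replicates 1 to 4 and at 41.2, 27.4, 26.0 and 24.9 CPM in knockout replicates 1 to 4. Of the knockout libraries, 3 lay below all controls, and only knockout replicate 1 lay above a control library, replicate 4. The group means were 50.0 ± 9.29 and 29.9 ± 7.62 CPM (SD, n = 4). The log2 fold change was -0.76 with a standard error of 0.19 and a 95% interval of -1.17 to -0.35, which is 0.59-fold with an interval of 0.445 to 0.782. Its unadjusted p of 0.00123 ranked 59th of all tested genes, and the edgeR adjusted p was 0.26. The call depended on the low-count filter: with every gene that had a count kept in the fit, 22958 genes, the adjusted p for F3 was 0.0194 at an almost equal log2 fold change of -0.763. In the other settings run, the adjusted p lay between 0.1 (without control replicate 4) and 0.658 (without knockout replicate 2), and the log2 fold change stayed below 0 in all of them. F3 shares no word of 31 bases with another annotated gene, so its reads are not divided with a copy.

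**Figure D2:**
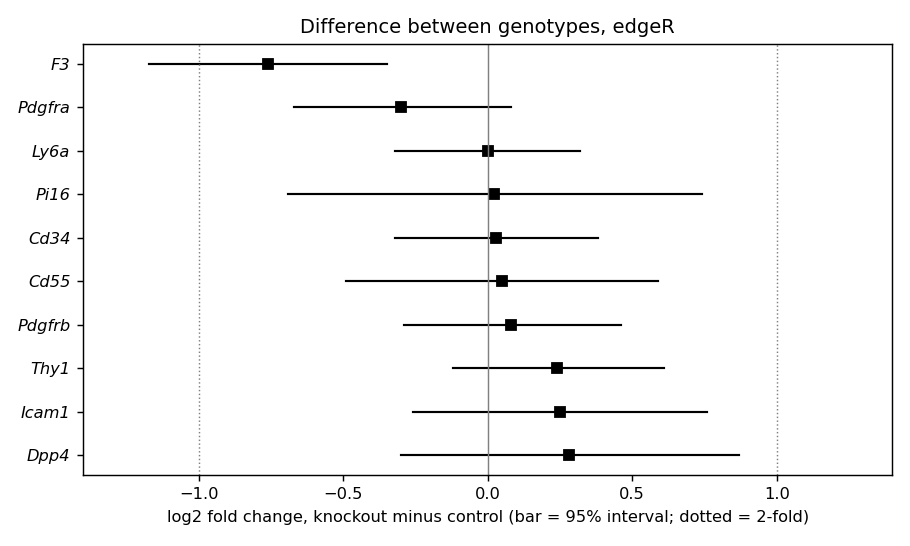
Log2 fold change of each marker, knockout minus control (horizontal axis), from edgeR, with its 95% interval; dotted lines mark a 2-fold difference. The interval of F3 runs from -1.17 to -0.35 and the intervals of the other 9 markers include 0.

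**Figure D3:**
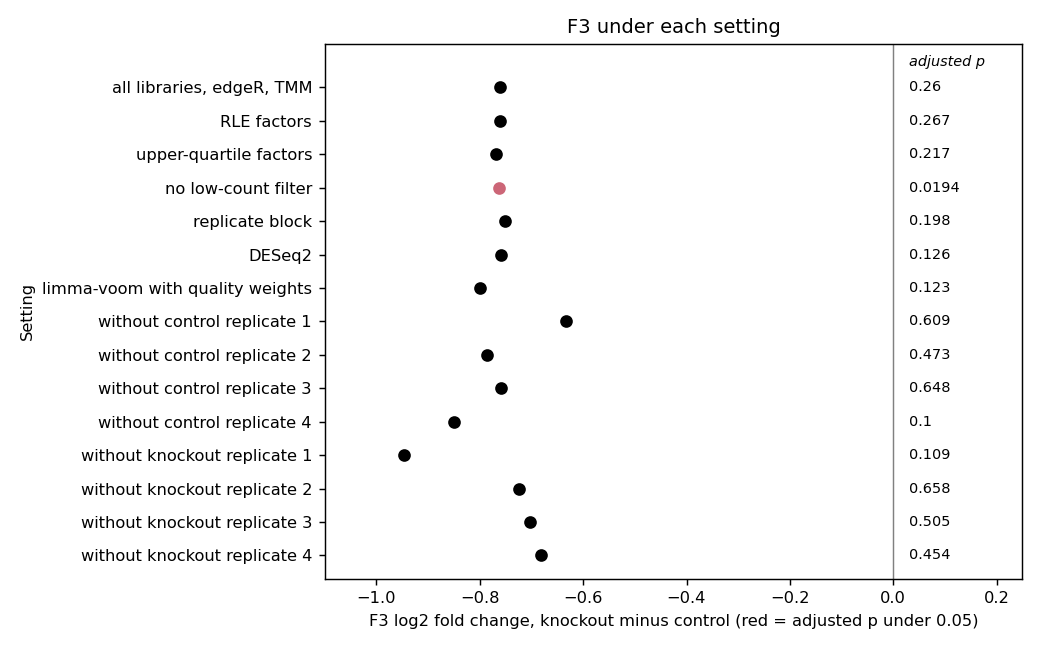
F3 log2 fold change (horizontal axis) under each setting (vertical axis), with its adjusted p at the right. The values lie between -0.947 and -0.633, and the fit without a low-count filter (red, adjusted p = 0.0194) is the only setting of those run that passed 0.05.

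Some library measures separated the genotypes as F3 nearly did. The summed level of the 10 macrophage markers was 888.5 to 1008 CPM in the controls and 1277 to 1642 CPM in the knockouts. That separation rested on Lyz2, the most abundant of them: without it, a calculation added after seeing the data, the sums overlapped, at 533.4 to 644.9 CPM in the controls and 622.4 to 844.4 CPM in the knockouts. The mitochondrial share was 10.7% to 12.4% and 8.70% to 10.1%. The number of genes above 0 was 17457 ± 331 in controls and 18082 ± 118 in knockouts (SD, n = 4 each), with no overlap (adjusted p = 0.0429 by the same exact permutation test). The total estimated counts overlapped (exact permutation p = 0.6). The summed level of 14 general fibroblast genes was lower in every knockout, at 8986 to 9829 CPM against 10040 to 10480 CPM. Without Gsn, the most abundant of these, the fibroblast sums overlapped, at 4253 to 5037 CPM in the controls and 4423 to 6033 CPM in the knockouts. The summed level of the 10 adipocyte markers overlapped, at 37650 to 50450 CPM in the controls and 30200 to 47480 CPM in the knockouts. The part of these measures in the F3 values was not tested.

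The stretch upstream of F3 is shown beside that of Icam1, because both genes are textbook targets of AP-1 and NF-κB, the transcription factors of stress and inflammation. Their log2 fold changes here had opposite signs (-0.76 and 0.25), but neither gene passed (edgeR adjusted p = 0.26 and 0.934). The 95% interval of Icam1, -0.26 to 0.76, includes 0, so an opposite response of these genes was not shown. RefSeq promoter windows (GRCm38.p6) were searched for only 7 of the 10 markers. The 250 bases before the RefSeq start were searched on both strands for TGANTCA (AP-1) and GGANNTTCC (a core found in many NF-κB sites). They were also searched for GGGCGG (the GC box bound by Sp1) and the full oestrogen response element (GGTCA, 3 bases of any kind, TGACC). Matches are in capitals, 5′ to 3′ on the gene's strand (both plus), for chr3:121723287-121723536 and chr9:21015690-21015939.
F3: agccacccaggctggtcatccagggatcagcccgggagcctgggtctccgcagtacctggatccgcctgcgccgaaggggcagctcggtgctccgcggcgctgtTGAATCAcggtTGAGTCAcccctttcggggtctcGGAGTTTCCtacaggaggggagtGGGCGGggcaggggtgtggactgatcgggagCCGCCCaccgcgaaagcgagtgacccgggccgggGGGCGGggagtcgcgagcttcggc
Icam1: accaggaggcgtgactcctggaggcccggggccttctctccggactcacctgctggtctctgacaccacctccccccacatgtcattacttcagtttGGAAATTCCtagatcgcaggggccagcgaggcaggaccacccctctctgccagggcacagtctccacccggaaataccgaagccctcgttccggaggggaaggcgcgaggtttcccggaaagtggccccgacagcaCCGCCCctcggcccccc

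In the F3 window the search found TGAATCA and TGAGTCA, then GGAGTTTCC, and 3 GC boxes, of which CCGCCC is the motif read on the other strand. In the Icam1 window it found GGAAATTCC and 1 GC box. Pdgfrb, Ly6a and Thy1 were left out of the search, so the marker counts cover only the other 7. F3 was the only one of the 7 markers with an AP-1 match, which 6.75% of 32851 promoter windows of this length had. The NF-κB-like core was in F3 and Icam1, against 3.59% of all windows. GC boxes were in 3 of the 7 (Cd55, Icam1 and F3), against 32.7%. The full oestrogen response element was in none of the 7 and in 0.0639% of all windows; that says only that these letters are not in these 250 bases. The motifs were chosen after the values of both genes had been seen, and a match is not evidence that a factor binds.

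The PDGF receptors did not pass. Pdgfra (chromosome 5, 75152292 to 75198215), a tyrosine kinase receptor for platelet-derived growth factors and the broadest marker of fat fibroblasts, stood at 45.1, 51.9, 60.1 and 71.8 CPM in control replicates 1 to 4 and at 40.8, 49.2, 57.8 and 37.1 CPM in the knockouts. The lowest value was in knockout replicate 4 and the highest in control replicate 4, with the other libraries interleaved. The log2 fold change was -0.30 with a 95% interval of -0.67 to 0.08 (edgeR adjusted p = 0.877). Pdgfra shares words of 31 bases with 1451 genes, at most 14 with any of them, and some of its estimated counts were fractional. Pdgfrb, the related receptor that pericytes also carry, was at 34.9, 33.9, 34.5 and 48.7 CPM in the controls and 30.2, 39.5, 46.9 and 42.3 CPM in the knockouts. Control replicate 4 alone put the top of the control range above that of the knockouts. The log2 fold change was 0.08 with an interval of -0.29 to 0.46 (edgeR adjusted p = 0.976).

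The estimated count of Pdgfrb divided by that of Pdgfra in the same library was 0.775, 0.656, 0.573 and 0.678 in the controls and 0.74, 0.803, 0.811 and 1.14 in the knockouts. Of the 4 knockout libraries, 3 had a higher ratio than any control; the difference in log2 ratio was 0.37 (control -0.59 ± 0.18, knockout -0.21 ± 0.28, SD, n = 4; two-sided exact permutation p = 0.0571, adjusted p = 0.229 over 4 ratios chosen after the values had been seen). The difference kept its sign when any library was left out, from 0.235 to 0.444. The ratio of F3 to Pdgfra differed by -0.45 on the log2 scale (exact permutation p = 0.286, adjusted p = 0.571). Of the ratios that set an interstitial marker against the committed-cell marker Icam1, that of Dpp4 differed by -0.09 (exact permutation p = 0.914, adjusted p = 0.914) and that of Pi16 by -0.30 (exact permutation p = 0.571, adjusted p = 0.762).

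Among the ligands and close signalling partners of these receptors, none of 10 genes passed, with 3 above 0, 7 below and a median log2 fold change of -0.05. Pdgfd, a PDGF ligand, went from 7.63 ± 2.66 CPM in the controls to 11.2 ± 2.83 CPM in the knockouts (SD, n = 4; edgeR log2 fold change 0.52 with an adjusted p of 0.903). Pik3r1, the regulatory subunit of phosphoinositide 3-kinase, went from 385 ± 63.0 CPM in the controls to 316 ± 62.8 CPM in the knockouts (SD, n = 4; edgeR log2 fold change -0.29 with an adjusted p of 0.844).

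None of the interstitial markers passed, and their libraries were spread widely within each genotype. Dpp4 (chromosome 2, 62330073 to 62412231, minus strand), a surface peptidase that clips chemokines and incretins, was at 18.9, 21.3, 19.7 and 34.6 CPM in the controls and 15.6, 27.8, 39.6 and 29.5 CPM in the knockouts. Knockout replicate 1 held the lowest value and knockout replicate 3 the highest, as the ends of the same group. Its log2 fold change was 0.28 with an interval of -0.30 to 0.87 (edgeR adjusted p = 0.934), and without control replicate 4 it was 0.501. Dpp4 and Pdgfrb both had their lowest value in knockout replicate 1 and their 2 highest in control replicate 4 and knockout replicate 3.

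Pi16 (chromosome 17, 29317680 to 29330593), a secreted or membrane-bound protein of the CAP family, had the fewest counts of the 10, and was at 15.02, 6.70, 15.2 and 14.7 CPM in the controls and 7.33, 10.5, 16.3 and 17.7 CPM in the knockouts. Control replicate 2 and knockout replicate 1 were low, and the other libraries of both groups overlapped. Its log2 fold change of 0.02 had the widest interval of the 10, -0.69 to 0.74. Left out in turn, the libraries moved it between -0.199 and 0.208.

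Cd55 (chromosome 1, 130439027 to 130462744, minus strand) encodes decay-accelerating factor, which protects cells from complement. Its values were 33.5, 27.6, 32.3 and 22.4 CPM in the controls and 28.9, 28.2, 17.5 and 45.6 CPM in the knockouts. The 4 controls lay inside the range set by knockout replicates 3 and 4, and the log2 fold change was 0.05 with an interval of -0.49 to 0.59 (edgeR adjusted p = 0.99). Cd55 shares 531 of its 4753 words of 31 bases with its near copy Cd55b. Its estimated counts were whole numbers in every library, which shows no division of reads between genes. Reads given wholly to the wrong copy would not be seen in this way.

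Thy1 (chromosome 9, 44043384 to 44048579), a small protein held to the membrane by a glycolipid anchor, was at 32.8, 24.3, 26.0 and 25.6 CPM in the controls and 35.3, 29.9, 36.9 and 27.6 CPM in the knockouts. All 4 knockout libraries were above 3 of the controls, and control replicate 1 was above 2 of the knockouts. The log2 fold change was 0.24 with an interval of -0.12 to 0.61 (edgeR adjusted p = 0.91).

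Of 12 other interstitial progenitor genes 10 were tested and none passed, with 5 above 0 and 5 below and a median of 0.01. Fbn1, the microfibril protein fibrillin, went from 74.1 ± 26.1 CPM in the controls to 127 ± 19.7 CPM in the knockouts without overlap (SD, n = 4; edgeR log2 fold change 0.76 with an adjusted p of 0.482). Anxa3, an annexin, went from 49.5 ± 6.49 CPM in the controls to 69.6 ± 11.8 CPM in the knockouts with overlap (SD, n = 4; edgeR log2 fold change 0.49 with an adjusted p of 0.481).

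**Figure D4:**
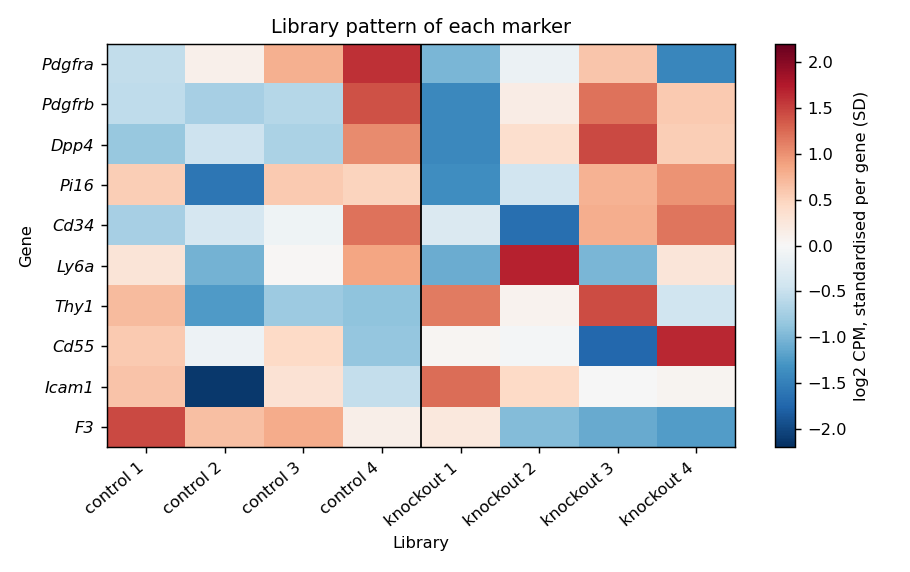
Log2 CPM of each marker (rows) in each library (columns), standardised per gene over the 8 libraries, with red above and blue below the gene's mean. Control replicate 4 is the highest library for 3 markers, knockout replicate 1 and control replicate 2 are each the lowest for 3, and no column is red or blue throughout.

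Cd34 and Ly6a, the broad stromal markers shared with endothelium, had nearly equal means. Cd34 (chromosome 1, 194938819 to 194961279), a sialomucin of progenitor and endothelial surfaces, was at 83.2, 88.7, 93.3 and 118 CPM in the controls and 89.8, 70.2, 109.8 and 117.7 CPM in the knockouts. The 2 top libraries were of different genotypes, and the log2 fold change was 0.03 with an interval of -0.32 to 0.38 (edgeR adjusted p = 0.992). Ly6a (chromosome 15, 74994877 to 74998031, minus strand), which encodes the Sca-1 antigen, had means of 154.7 ± 19.1 and 154.6 ± 33.4 CPM (SD, n = 4). Its libraries ran from 129.7 to 175.7 CPM in the controls and from 128.7 to 200.1 CPM in the knockouts, and the log2 fold change was 0 with an interval of -0.32 to 0.32 (edgeR adjusted p = 0.999). Ly6a shares words with 9 genes, most of all 276 of its 1259 with Ly6c1, so part of its reads cannot be assigned with certainty. Cd34 shares words with 148 genes, at most 57 with any of them, and its estimated counts were fractional in every library.

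The 10 endothelial markers summed to 587.2 CPM in control replicate 4 and to 841.8 to 1026 CPM in the other controls. Cd34 and Ly6a were at their highest control values in replicate 4. In the knockout libraries the sum was 759.1 to 965 CPM. It was highest in knockout replicate 2, where Ly6a was at its highest (200.1 CPM) and Cd34 at its lowest (70.2 CPM). The part of endothelial cells in the Cd34 and Ly6a values was not tested. Of the 10 endothelial markers none passed, 7 were above 0 and the median was 0.06. Vwf, the von Willebrand factor, went from 57.4 ± 14.3 CPM in the controls to 35.5 ± 14.4 CPM in the knockouts (SD, n = 4; edgeR log2 fold change -0.69 with an adjusted p of 0.733), and Egfl7, an endothelial secreted protein, from 52.4 ± 10.1 CPM in the controls to 64.0 ± 9.45 CPM in the knockouts (SD, n = 4; edgeR log2 fold change 0.28 with an adjusted p of 0.863).

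Icam1 (chromosome 9, 21015985 to 21028817), the adhesion molecule that leukocyte integrins bind, was at 20.3, 10.5, 18.8 and 15.4 CPM in the controls and 23.4, 19.4, 17.5 and 17.7 CPM in the knockouts. Control replicate 2 was the lowest library and knockout replicate 1 the highest, with overlap between. The log2 fold change was 0.25 with an interval of -0.26 to 0.76 (edgeR adjusted p = 0.934). Icam1 shares words of 31 bases with 1562 genes, at most 63 with any of them. Its estimated counts were fractional in every library, so part of its reads was divided between transcripts that share sequence. The summed macrophage markers given with F3 separated the genotypes with Lyz2 and overlapped without it; their part in the Icam1 values was not tested.

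Of 13 markers and regulators of committed preadipocytes 12 were tested and none passed, with 5 above 0, 7 below and a median of -0.05. Pparg, the master transcription factor of fat cells, went from 226 ± 26.8 CPM in the controls to 192 ± 8.11 CPM in the knockouts (SD, n = 4; edgeR log2 fold change -0.23 with an adjusted p of 0.802). Cebpa, its partner in differentiation, went from 411 ± 40.1 CPM in the controls to 343 ± 60.2 CPM in the knockouts (SD, n = 4; edgeR log2 fold change -0.26 with an adjusted p of 0.816). Dlk1, the preadipocyte factor, averaged 0.953 CPM in the controls and 1.04 CPM in the knockouts and was removed by the filter; the level that 3 counts give was 0.984 to 1.92 CPM depending on the library.

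Of 22 genes listed as partners or substrates of the other surface markers, or as proteins related to them, 15 were tested and none passed. An unadjusted p under 0.05 was seen for 4, all above 0 (3.52% of all tested genes had such a p in that direction). The 4 did not overlap between genotypes, a separation seen in 4.21% of all tested genes. They were picked by a low p in the same values, so their separation is no further support. Itgb2, the shared beta chain of the leukocyte integrins that bind Icam1, went from 12.1 ± 4.32 CPM in the controls to 25.01 ± 0.679 CPM in the knockouts (SD, n = 4; edgeR log2 fold change 1.02 with an adjusted p of 0.222). The alpha chains Itgax (4.17 ± 2.26 to 11.8 ± 3.68 CPM, log2 fold change 1.47, edgeR adjusted p = 0.418) and Itgam (16.1 ± 4.97 to 25.2 ± 1.09 CPM, log2 fold change 0.62, edgeR adjusted p = 0.616) pair with it (SD, n = 4). Without the low-count filter the adjusted p of Itgb2 was 0.0427. It was 0.0611 with DESeq2, 0.373 with the replicate number as a block and 0.512 without control replicate 2. These 3 integrins are genes of leukocytes, and the macrophage sum in the same libraries did not overlap between genotypes unless Lyz2 was left out; its part in them was not tested. C4b, a complement component whose convertase Cd55 takes apart, went from 519 ± 67.1 CPM in the controls to 668 ± 42.1 CPM in the knockouts (SD, n = 4; edgeR log2 fold change 0.36 with an adjusted p of 0.52).

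Other markers of the CD142-positive population lay on both sides of 0. Of 12 listed, 11 were tested and none passed, with 4 above 0 and 7 below and a median of -0.07. Abcg1, a cholesterol exporter that macrophages express as well, was at 37.4, 41.4, 45.7 and 24.4 CPM in the controls and 92.5, 60.5, 60.1 and 77.4 CPM in the knockouts. All 4 knockout libraries were above all controls (edgeR log2 fold change 0.95 with an adjusted p of 0.0962), and the adjusted p was 0.00764 with DESeq2 and 0.000277 without the low-count filter. Abcg1 did not pass with the replicate number as a block (edgeR adjusted p = 0.346). Nor did it pass without control replicate 1 (0.27), 2 (0.276) or 3 (0.179). Mgp, the matrix Gla protein, went from 205 ± 54.5 CPM in the controls to 152 ± 35.5 CPM in the knockouts (SD, n = 4; edgeR log2 fold change -0.42 with an adjusted p of 0.825). The sum of the 12 genes ran from 808.1 to 885.4 CPM in the controls and from 817.3 to 895.3 CPM in the knockouts, which overlap almost fully.

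Markers of fibro-inflammatory progenitors, a population described in the fat beside the gonads, gave 9 tested genes of 12, none past the threshold, with 5 above 0, 4 below and a median of 0.04. Ccl2, a chemokine that draws monocytes, went from 11.1 ± 5.20 CPM in the controls to 19.8 ± 4.10 CPM in the knockouts (SD, n = 4; edgeR log2 fold change 0.82 with an adjusted p of 0.689), and Fn1, fibronectin, from 138 ± 17.3 CPM in the controls to 201 ± 74.0 CPM in the knockouts (SD, n = 4; edgeR log2 fold change 0.54 with an adjusted p of 0.726). The sum of the 12 genes was 602.3 to 682.5 CPM in the controls and 727.7 to 811 CPM in the knockouts, without overlap. Without its most abundant gene, Ly6c1, it was 400.5 to 469.1 CPM against 503.5 to 654.6 CPM. Ly6c1 itself had a log2 fold change below 0 (-0.12), so leaving it out could not weaken the separation. Thbs1, named after its values were seen, had the highest log2 fold change of the list. It went from 28.8 ± 18.7 CPM in the controls to 66.1 ± 30.3 CPM in the knockouts (SD, n = 4, edgeR log2 fold change 1.13 with an adjusted p of 0.816). The parts of Thbs1 and of the macrophage sum in the sum of the 12 genes were not tested. Of 14 general fibroblast genes, all tested, none passed, 10 were above 0 and the median was 0.10, while their sum, given with F3, was lower in every knockout and overlapped without Gsn. Gsn, gelsolin, went from 5423 ± 264 CPM in the controls to 4476 ± 796 CPM in the knockouts (SD, n = 4; edgeR log2 fold change -0.28 with an adjusted p of 0.803), and Fstl1 from 169 ± 16.5 CPM in the controls to 207 ± 39.5 CPM in the knockouts (SD, n = 4; edgeR log2 fold change 0.29 with an adjusted p of 0.802).

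**Figure D5:**
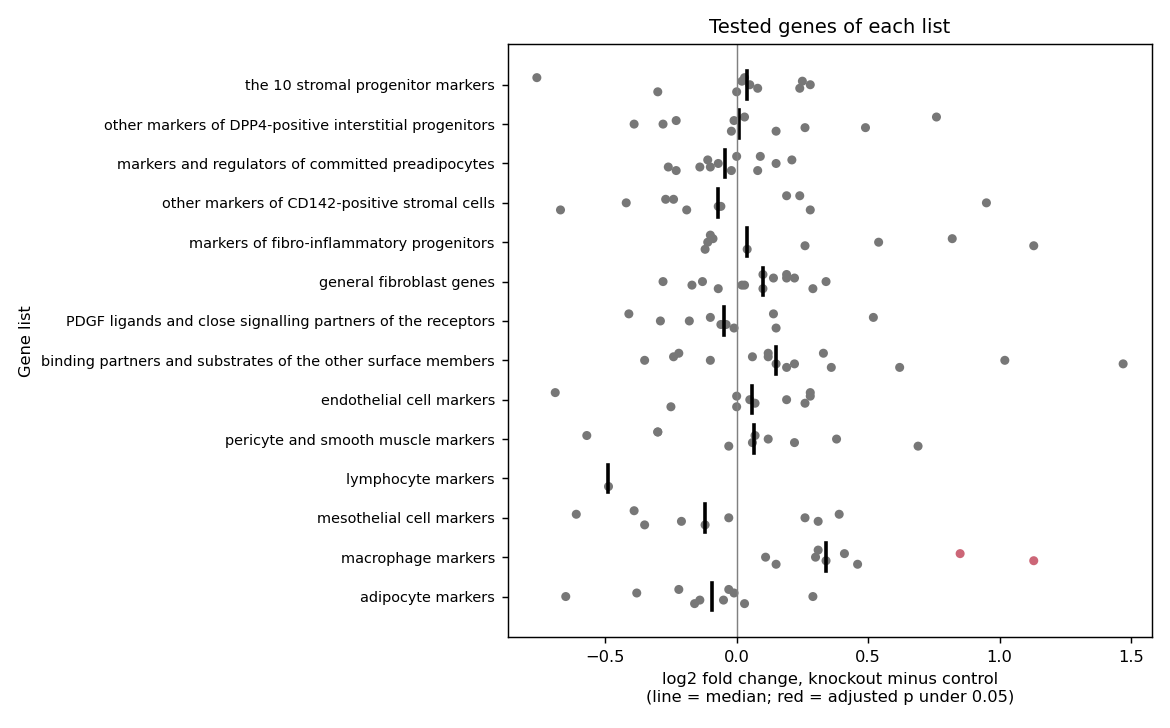
Log2 fold change, knockout minus control (horizontal axis), of every tested gene of each list (rows), with the list's median as a line and genes past an adjusted p of 0.05 in red. The median of the 10 stromal markers lies at 0.04, that of the macrophage markers at 0.34, and the 2 red points, Lyz2 and Cd68, are macrophage markers.

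Among the lists examined here, only the macrophage list held genes past the threshold. Of its 10 markers 9 were tested, all 9 were above 0, and Lyz2 (edgeR log2 fold change 0.85 with an adjusted p of 0.00776) and Cd68 (1.13, edgeR adjusted p = 0.0156) passed. Without control replicate 2 neither did (edgeR adjusted p = 0.0551 for Lyz2 and 0.0786 for Cd68), nor with the replicate block (0.0813 and 0.0962), and Cd68 also missed without control replicate 3 (0.1), knockout replicate 1 (0.0621) or knockout replicate 2 (0.0984). Of all tested genes, 0.168% passed, 6.39% had an unadjusted p under 0.05 and 4.21% did not overlap between genotypes. Another 4 macrophage markers had an unadjusted p under 0.05 and did not pass. Mrc1, the mannose receptor, went from 112 ± 4.97 CPM in the controls to 138 ± 22.1 CPM in the knockouts (SD, n = 4; edgeR log2 fold change 0.31 with an adjusted p of 0.701), and C1qb, a chain of complement C1q, from 89.6 ± 16 CPM in the controls to 114 ± 16.1 CPM in the knockouts (SD, n = 4; edgeR log2 fold change 0.34 with an adjusted p of 0.726). Adgre1, the F4/80 antigen (19.9 ± 5.47 to 27.7 ± 2.93 CPM, log2 fold change 0.46, edgeR adjusted p = 0.771), and Csf1r, the receptor of macrophage colony-stimulating factor (69.8 ± 8.28 to 86.2 ± 14.2 CPM, log2 fold change 0.30, edgeR adjusted p = 0.775), did not overlap between genotypes (SD, n = 4). The margin was narrow: the highest control and lowest knockout were at 24.67 and 24.73 CPM for Adgre1 and at 75.8 and 76.93 CPM for Csf1r. The other C1q chains, named after their values were seen, had log2 fold changes of 0.15 (C1qa) and 0.11 (C1qc).

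Pericyte and smooth muscle markers, which bear on Pdgfrb, were all tested and none of the 10 passed, with 6 above 0 and a median of 0.06; Notch3, a receptor of mural cells, went from 19.2 ± 4.89 CPM in the controls to 31.7 ± 5.11 CPM in the knockouts and Tagln, a smooth muscle protein, from 49.9 ± 13.1 CPM in the controls to 33.8 ± 4.81 CPM in the knockouts (SD, n = 4; edgeR adjusted p = 0.45 and 0.514). Their sums overlapped, at 702.6 to 936.4 CPM and 697.5 to 937.9 CPM. Of 10 lymphocyte markers, which bear on Thy1 and Ly6a, only Cd3d was tested (edgeR log2 fold change -0.49 with an adjusted p of 0.924), and the 10 together summed to 17.16 to 21.53 CPM in the controls and 13.96 to 33.48 CPM in the knockouts.

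Mesothelial cells cover this fat pad. Of their 10 markers 9 were tested, none passed, and the sum was 129.6 to 391.7 CPM in the controls and 149.3 to 248.6 CPM in the knockouts, highest in control replicate 4. Gpm6a went from 12.6 ± 4.57 CPM in the controls to 16.4 ± 6.09 CPM in the knockouts (SD, n = 4; edgeR log2 fold change 0.39 with an adjusted p of 0.922), and Lrrn4 from 13.55 ± 4.28 CPM in the controls to 16.4 ± 6.36 CPM in the knockouts (SD, n = 4; edgeR log2 fold change 0.31 with an adjusted p of 0.939). Of the 10 adipocyte markers none passed, 8 were below 0 and the median was -0.10; Retn, the adipokine resistin, went from 2392 ± 320 CPM in the controls to 1528 ± 144 CPM in the knockouts without overlap (SD, n = 4; edgeR log2 fold change -0.65 with an adjusted p of 0.0731), and Slc2a4, the insulin-regulated glucose transporter, from 108 ± 26.9 CPM in the controls to 92.9 ± 17.3 CPM in the knockouts (SD, n = 4; edgeR log2 fold change -0.22 with an adjusted p of 0.922). The adjusted p of Retn was 0.00022 with DESeq2, 0.0261 with limma-voom, 0.00157 without the low-count filter and 0.0114 with edgeR without control replicate 4. Retn did not pass with the replicate block (edgeR adjusted p = 0.198). Nor did it pass without control replicate 1 (0.207), 2 (0.195) or 3 (0.347), and its highest adjusted p in any setting run was 0.368. Of 8 epididymis markers 4 were at 0 in every library and the sum was at most 8.534 CPM.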

How the data were processed

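Libraries of 3′ ends were made by BRB-seq with an insert read of 51 bases, per the labels' protocols. The authors deposited 1 table of estimated counts per gene, not normalized; 59.6% of those above 0 were whole numbers. Per the submitters' processing notes the tools include Salmon and the build is GRCm38; versions, annotation and use of molecular identifiers are not given in the sources used here. Counts were rounded to whole numbers. Identifiers were matched without version to GENCODE M21 (GRCm38) symbols, 34582 of 34866.

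Genotypes were compared over all genes with edgeR 4.0.16 in R 4.3.3 (robust quasi-likelihood F test, genotype only, TMM factors, filterByExpr, 12480 genes, Benjamini-Hochberg, threshold 0.05). Standard errors and 95% intervals come from that F statistic. The test was checked on simulated data. Ratios and library measures were compared with exact permutation tests in scipy 1.17.1. Replicate pairs differed by a chi-square of 4.48 to 9.40 per degree of freedom over genes with at least 20 counts, more than sampling gives. Each library was counted once, and the check cannot show whether the libraries come from separate animals. A level of 3 counts covers counting error only.

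Named are all markers, Cyp19a1, in each list the 2 genes with the smallest p and those with an unadjusted p under 0.05, and the 5 genes most like the markers. Members and lists were chosen with earlier results of these data known. As alternatives, factors were taken by RLE or upper quartile, the filter was dropped, and the table was run through DESeq2 1.42.0 and limma-voom (limma 3.58.1). The replicate number was also used as a block, and each library was left out in turn; those of the ratios, and list sums without their most abundant gene, were added after seeing the data.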

Additional observations from a re-analysis of the deposited data

Results flagged for a closer look

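A library was singled out where, within a group of 4, its gap to the nearest other library took up more of the group's range than Dixon's critical value allows. Of 26 groups of values examined, for the 10 markers and 3 library measures, 4 held such a library; chance flags about 1 in 20, or 1.3. Control replicate 4, the smallest library, stood at 48.7 CPM for Pdgfrb, where the other controls were at 33.9 to 34.9 CPM. The same library stood at 34.6 CPM for Dpp4, with the other controls at 18.9 to 21.3 CPM. Without it the log2 fold changes were 0.209 for Pdgfrb and 0.501 for Dpp4, and neither passed. Control replicate 2 stood at 6.70 CPM for Pi16, with 14.7 to 15.2 CPM in the other controls, and without it the log2 fold change of Pi16 was -0.199. Knockout replicate 1 stood at 41.2 CPM for F3, with 24.9 to 27.4 CPM in the other knockouts. Without it the F3 libraries did not overlap between genotypes and the log2 fold change was -0.947 (edgeR adjusted p = 0.109). As the only knockout library above a control, its removal had to part the groups, so that separation is no further support.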

How the results depend on the processing

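The number of genes past the threshold was 21 with all libraries, 58 without the low-count filter, 55 with DESeq2 and 6 with the replicate block, and 4 (without control replicate 2) to 43 (without control replicate 4) when 1 library was left out. The number of markers past it was 0, also in every fit with 1 library left out (0 to 0), and 1, F3, without the low-count filter. The cause of these changes was not tested. The block changed no call on a marker. For replicate numbers 1 to 4 the correlation of deviations from the genotype mean was 0.25, -0.06, -0.01 and -0.24. No reference from libraries of unlike number was computed, so these values cannot decide whether the numbers pair the libraries. Markers near 0 changed sign: Ly6a with upper-quartile factors (-0.005), Pi16 (-0.006), Ly6a (-0.016) and Cd55 (-0.014) with the block, and Cd55 with limma-voom (-0.11); Gm6741 did so with the block (0.095) and limma-voom (1.179). With 1 library left out the log2 fold change ranged from -0.083 to 0.153 for Cd34, -0.239 to 0.236 for Cd55, -0.145 to 0.082 for Ly6a, -0.007 to 0.209 for Pdgfrb, -0.199 to 0.208 for Pi16, -0.039 to 0.173 for Olfr889 and -0.462 to 0.397 for Gm6741, and the log2 ratio difference from -0.322 to 0.267 for Dpp4 to Icam1 and -0.525 to 0.035 for Pi16 to Icam1. Pdgfra, Dpp4, Thy1, Icam1 and F3 kept their sign in every setting run. At 16 to 496 counts per library, the depth and the 4 libraries a group leave intervals that reach from -1.17 (F3) to 0.87 (Dpp4) on the log2 scale.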

Other observations

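By a rule that compares each tested gene's log2 CPM with the mean standardised level of the 10 markers over the 8 libraries, the 5 genes most alike were Olfr889 (Pearson r 0.97, Spearman rho 0.98), Mgat3 (0.95 and 0.88), Gm6741 (0.93 and 0.74), Abhd16a (0.93 and 0.74) and Shisa4 (0.92 and 0.67). These are the highest of 12480 genes over only 8 libraries that share their scaling, so they are a description and no test. Without control replicate 2 and knockout replicate 1, the libraries farthest from the median, Pearson r was 0.82, 0.87, 0.59, 0.55 and 0.56 in the same order, so the last 3 rest in large part on those libraries. None of the 5 is a gene of the stromal lists, and none passed between genotypes, with log2 fold changes of 0.08, -0.17, -0.03, -0.05 and -0.14.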
